A study of Homo sapiens with 8 samples.

Results

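SOX genes encode transcription factors that bind DNA through an HMG box, a domain they share with the sex-determining factor SRY. The genes examined here were SOX2, SOX3, SOX4, SOX8, SOX9, SOX11, SOX12 and SOX13, and their YTHDF2 binding sites were taken as the distinct positions of the deposited list that lie within each gene's annotated span on GRCh38, on the gene's strand. Of these 8 genes, 6 held a site, and together they held 37 of the 37613 positions in the list. SOX4 held 16 and SOX12 held 12, SOX2 and SOX9 held 3 each, SOX13 held 2 and SOX8 held 1. SOX3 and SOX11 held none.

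YTHDF2 is a cytoplasmic reader of N6-methyladenosine (m6A), a mark that the METTL3-METTL14 methyltransferase places on adenosines of mRNA within the consensus DRACH, and it brings bound mRNAs to the decay machinery. Transcripts of developmental regulators are often short-lived, and m6A is one of the marks known to speed the decay of such mRNAs. SOX factors are grouped by the likeness of their HMG boxes: SOX2 and SOX3 belong to subgroup B1, which maintains neural and pluripotent progenitors, SOX4, SOX11 and SOX12 to subgroup C, SOX13 to subgroup D, and SOX8 and SOX9 to subgroup E.

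Binding was mapped by iCLIP2, in which YTHDF2 is linked to its RNA in living cells by ultraviolet light and recovered with an antibody, so that the ends of the truncated cDNAs mark the contact. All 8 libraries came from wild-type HEK293T, an established line derived from human embryonic kidney, and each group had 4 replicates. One group received 20 µM STM2457, an inhibitor of METTL3 that depletes m6A, in 0.2% DMSO for 12 h, and the control group received 0.2% DMSO alone for 12 h, so the solvent was common to both. The list gives 1 score per row and names no library. STM2457 and DMSO could therefore not be compared, no value below has a replicate error, and read depth is unknown. For the same reason neighbours in the order of site counts, such as SOX4 and SOX12, cannot be ranked beyond error, and all values here are descriptions without a test.

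A sequence could be read for 1 of the 37 SOX positions, the most 5′ site of SOX4, and it is shown because it places the listed nucleotide within the m6A consensus. The position, 21593773 on the plus strand of chromosome 6, lies 22 nt downstream of the annotated start of SOX4. The RefSeq sequence around it (GRCh38.p14, chr6:21593759-21593787, plus strand, 5′ to 3′) is given with the 5 bases centred on the listed position in capitals.
SOX4 first site: ctgcagcaagagAAACTgtgtgtgagggg
The listed base is the third A of the capitals. AAACT is one of the 18 words of DRACH, which has A, G or T first, A or G second, then AC, then A, C or T. It is the only such word in these 29 bases on the strand of the gene. For comparison, 29-base windows were taken from either end of each start-region sequence in the reference table, on the strand of the gene, and 33.4% of these 69592 windows held at least 1 DRACH word.

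The same core letters stood at the other listed positions that could be read. The reference windows covered 250 listed positions with their flanks, 0.665% of the list, and at all 250 the listed base was an A preceded by A or G and followed by C (exact binomial 95% interval 98.5 to 100%). On both strands of the same windows, 2.28% of bases have those neighbours. A full DRACH word was centred on 212 of the 250 positions (84.8%) and absent from the other 38, against 1.55% of window bases. That 1.55% is taken over all window bases, of which only 2.28% have the core letters found at all 250 positions. The contrast of 84.8% with 1.55% therefore mostly restates the shared core. AAACT was the word at 15 positions and GGACT at 37. No 2 positions of the list on 1 strand lay closer than 4 nt. No source used here states how the authors placed positions. If the list was restricted to such adenosines or centred on them, these shares were set by that step, so they show no preference of YTHDF2. Whether the other 36 SOX positions have these letters was not examined.

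SOX4 and SOX12 carried 28 of the 37 sites (75.7%). SOX4, a factor of neural and immune progenitors, spans 4.87 kb and held 3.29 sites per kb of gene. SOX12, its close relative in subgroup C, spans 4.67 kb and held 2.57 per kb. Both genes are known to be intronless, so distance along the gene is also distance along the transcript. Over all 20037 protein-coding genes of the reference table, 39.6% held at least 1 site, 24.2% held 3 or more and 5.02% held 10 or more. Among the 8 SOX genes 6 held a site, 4 held 3 or more and 2 held 10 or more. These 8 genes were chosen with earlier results of these data known, so the contrast is no measure of enrichment. Bound protein-coding genes had a median of 3 sites, with quartiles of 2 and 6, and the 6 bound SOX genes also had a median of 3. SOX4 stood with the 3.31% of bound genes that had 16 or more sites, and SOX12 with the 7.61% that had 12 or more. The list holds no RNA levels. A high rank here or below, by count, density or score, therefore cannot be told apart from a high transcript level.

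Genes of like span gave a closer reference, though spans keep introns and SOX4 and SOX12 have none. Like span is therefore not like transcript length, and neither counts nor densities below were corrected for this. Of 4439 protein-coding genes spanning 2000 to 10000 nt, a range that contains all the SOX genes here but SOX13, 32.4% held a site, 18.9% held 3 or more and 3.2% held 10 or more. Among the 1438 of them that were bound, 11 had more sites than SOX4 and 40 had more than SOX12. By density, 35 of these genes exceeded SOX4 and 69 exceeded SOX12. The median of the bound genes was 0.562 sites per kb, next to which SOX9 stood at 0.556, SOX2 at 1.19 and SOX8 at 0.192.

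**Figure D1:**
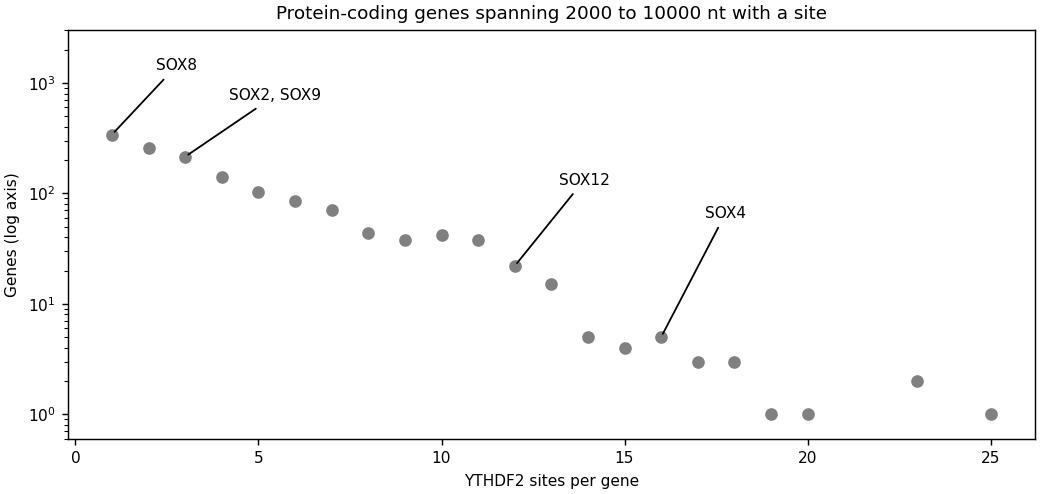
Protein-coding genes spanning 2000 to 10000 nt that held a YTHDF2 site, by number of sites per gene (x axis), with the number of genes on a log axis (y axis, 1 point per number of sites). SOX4 (16 sites) and SOX12 (12) lie in the upper tail, whereas SOX2 and SOX9 (3 each) and SOX8 (1) lie among the most common counts.

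In SOX4 the largest gap between sites divided them into an upstream and a downstream stretch. The upstream stretch held 8 sites within the first 1000 nt. Its strongest member, at 21594060 and 309 nt from the gene start, had a score of 108, which is higher than that of 97.2% of all listed positions. The score is the authors' own value per site, of unstated scale, and serves here only to rank sites within the list. The next site, 83 nt further at 21594143, scored 48.5. The other 6 upstream sites were weaker, with scores of 3.99 at 21593773, 4.19 at 21594245, 5.69 at 21594308, 3.64 at 21594360, 1.38 at 21594563 and 15.7 at 21594725. Thus 5 of the 8 upstream sites lay below the list's median score of 8.67.

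The downstream stretch of SOX4 began after 1047 nt without a site and held 8 more, none of them below the median of the list. It opened at 21595772 with a score of 78.0, followed by 31.2 at 21595877. After another 695 nt without a site, a pair only 8 nt apart, at 21596572 and 21596580, scored 14.3 and 54.8. A trio spaced by 6 and 23 nt, at 21596764, 21596770 and 21596793, scored 10.6, 53.5 and 40.0. The last site, at 21597108, scored 12.0 and lay 1511 nt before the annotated gene end. Across all 16 sites the lowest score was 1.38, the median 15.0 and the highest 108.

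SOX12 had a similar division but fewer strong sites. Its upstream stretch held 2 groups of 3. The first group lay 506 to 620 nt from the gene start on chromosome 20, with scores of 3.17 at 326058, 12.1 at 326103 and 90.2 at 326172. The second lay 549 nt further, with scores of 3.50 at 326721, 26.2 at 326748 and 25.6 at 326790. After 1000 nt without a site, 6 sites followed between 327790 and 328623. Of these only the one at 327978 was strong, with a score of 91.7, and the other 5 ranged from 3.52 to 7.00, all below the median of the list.

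SOX4 thus had 5 sites in the top 10% of the list by score, and SOX12 had 2. SOX4 had 11 of 16 sites at or above the list's median score and SOX12 had 5 of 12. Their highest scores exceeded the highest score of 90.9% and 88.0% of bound genes, respectively. Both genes have more sites than most bound genes, so this rank partly restates the number of sites. The median score was 15.0 in SOX4 and 6.44 in SOX12, the latter below the median of the list. Of 142 genes of 2000 to 10000 nt with 10 or more sites, 75 (52.8%) had a gap of 1000 nt or more between sites. The median largest gap of the 142 genes was 1102 nt. Introns were kept in these spans, so such a gap can hold an intron, which it cannot in SOX4 and SOX12. Whether gaps of this size are particular to the transcripts of SOX4 and SOX12 was therefore not tested.

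**Figure D2:**
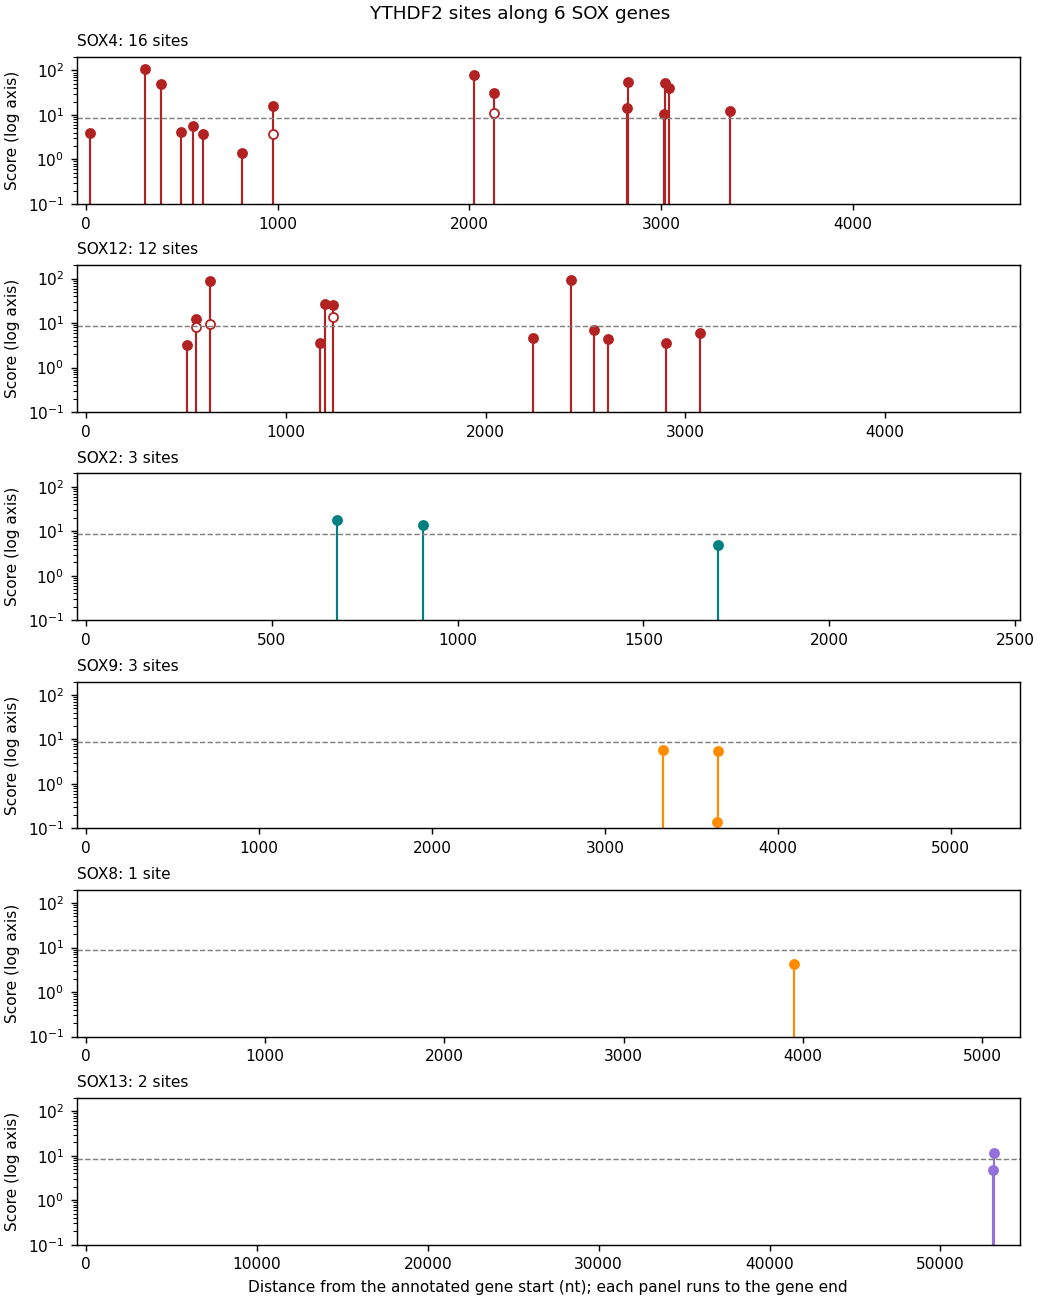
YTHDF2 sites along the 6 bound SOX genes, with distance from the annotated gene start in nt (x axis, each panel as long as its gene) and the authors' score on a log axis (y axis). Filled points give the higher score of a position, open points the lower score of the 5 positions listed on 2 rows, and the dashed line marks the list's median of 8.67; sites of SOX4 and SOX12 leave a gap of 1047 and 1000 nt, and those of SOX8, SOX9 and SOX13 all lie at or beyond 61.8% of the span.

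SOX11, the third gene of subgroup C and a factor of neuronal differentiation, held no listed position on either strand, although it spans 9.00 kb, more than SOX4 and SOX12. With the span extended by 1000 nt at both ends it still held none. The transcript level of each gene was not measured by this list, so a gene without a site cannot be told apart from a gene with little RNA in these cells. The same holds for SOX3, which spans 2.08 kb on the X chromosome and also held 0 sites.

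SOX2, a factor of pluripotent and neural stem cells, held 3 sites on chromosome 3. The first 2, at 181712600 and 181712833, scored 18.4 and 14.0 and lay 675 and 908 nt from the gene start. The third, at 181713625, scored 4.93 and lay 811 nt before the gene end. The first 2 ranked above 71.9% and 64.6% of listed positions, and the third above 32.3%. SOX2 lies within the longer noncoding gene SOX2-OT, which runs on the same strand, so position alone does not tell the transcripts apart. The remainder of the 686 kb span of SOX2-OT held 0 listed positions.

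In subgroup E all sites scored below the list's median. SOX9, a regulator of cartilage, testis and many progenitor cells, held 3 sites on chromosome 17, with scores of 5.89 at 72124354, 0.136 at 72124670 and 5.41 at 72124675. The 0.136 is the lowest of all 37 SOX sites and ranked above only 0.904% of listed positions, and its neighbour 5 nt away ranked above 34.9%. SOX8, which overlaps with SOX9 in function, held a single site at 985724 on chromosome 16 with a score of 4.25, above 28.1% of listed positions. SOX10, the remaining gene of subgroup E, held none.

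SOX13, the only SOX gene of subgroup D with a site, differs from the others in its span of 54.6 kb. Its 2 sites, at 204126215 and 204126232 on chromosome 1, lay 17 nt apart and 1528 and 1511 nt before the gene end. They scored 4.90 and 11.5. The place of these sites, beyond 97.2% of the span, is not their relative place in the mRNA, since introns were not removed from the span. Removing introns could only shorten their distance to the gene end.

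**Figure D3:**
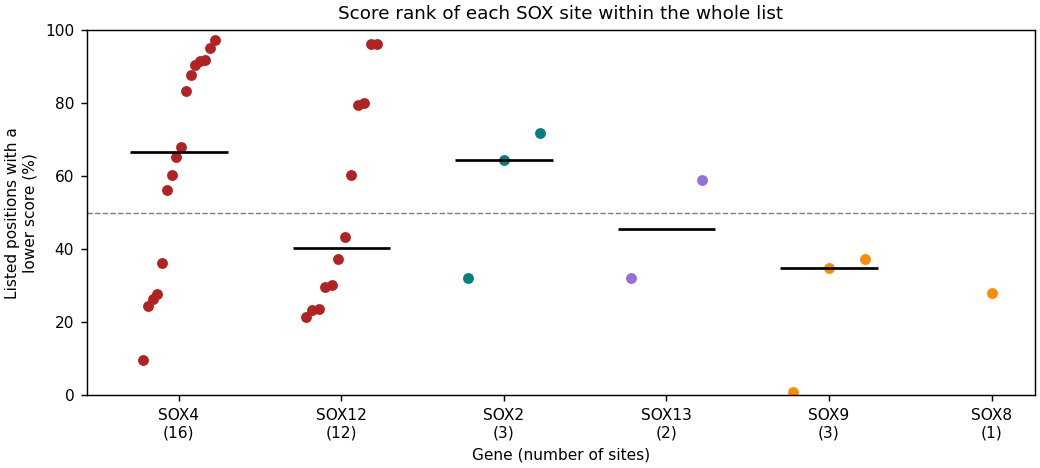
Score rank of each of the 37 SOX sites (points), as the percentage of all listed positions with a lower score (y axis), by gene with its number of sites (x axis). Black bars mark the median of each gene with more than 1 site and the dashed line marks 50%; SOX4 and SOX12 span most of the range, whereas all sites of SOX9 and SOX8 lie below the line.

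Taken as 1 set, the SOX sites had a median score of 10.6 (95% interval 4.93 to 15.7, from order statistics that treat sites as independent, although 28 of the 37 lie in 2 genes), with quartiles of 4.50 and 26.2, and the median of the whole list was 8.67, between quartiles of 3.75 and 20.8. With the lower score kept at positions on 2 rows, the medians were 7.00 for the SOX sites and 7.02 for the whole list. Positions in genes of 2000 to 10000 nt had a median score of 9.93, with quartiles of 4.17 and 25.7. At or above the list's median stood 19 of the 37 sites (51.4%), against 50% of all positions by construction and 54.1% in genes of that span. In the top 10% of the list stood 7 sites (18.9%), all of them in SOX4 or SOX12, against 14.0% of the positions in genes of 2000 to 10000 nt. A neighbour within 50 nt was found for 14 of the 37 sites (37.8%), against 29.7% of all positions and 30.7% in genes of 2000 to 10000 nt. These were 5 sites each in SOX4 and SOX12 and 2 each in SOX9 and SOX13. The shares were not corrected for the density of sites.

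Along the gene, few of the sites in SOX4 and SOX12 lay toward the 3′ end. With each span cut into 3 equal parts, 15 sites lay in the 5′ part, 15 in the middle part and 7 in the 3′ part (18.9%, exact binomial 95% interval 7.96 to 35.2%, which treats sites as independent). Over genes of 2000 to 10000 nt the 3′ part held 48.9% of sites, and over all protein-coding genes 64.4%, counting a position once in each gene that contains it. Introns were kept in these reference spans, so their parts, unlike those of intronless SOX4 and SOX12, are not parts of the mRNA. SOX4 had 8, 7 and 1 sites in the 3 parts and SOX12 had 6, 6 and 0. The other 4 bound genes had 6 of their 9 sites in the 3′ part. The cut stood at 66.7% of the span. Sites at 67.7% in SOX2 and at 67.6% and 67.7% in SOX9 lay just beyond it. The last SOX12 site, at 65.7%, lay just short of it. The contrast of SOX4 and SOX12 with the other 4 genes thus depends in part on where the cut falls. The interval covers counting error only, and sites of 1 gene share a transcript.

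Few SOX sites lay near the 3′ end of the gene. The most 3′ site lay between 811 nt (SOX2) and 1741 nt (SOX9) before the annotated gene end in the 6 bound genes, with a median of 1511 nt. In bound genes of 2000 to 10000 nt the median was 714 nt, with quartiles of 268 and 1795 nt, so the 5 bound SOX genes of that span range all lay above that median and below the upper quartile. Over all bound protein-coding genes the median was 1737 nt, above 5 of the 6 SOX values. The last 1000 nt held 1 of the 37 SOX sites, the most 3′ one of SOX2, against 33.2% of sites in genes of that span and 16.8% over all protein-coding genes. The first 1000 nt held 13 (35.1%), of which 8 were in SOX4, against 13.8% and 5.59%. Coding and untranslated regions were not located, as exon and coding annotation was not used here. Introns were likewise kept in the reference spans, so these contrasts mix gene structure with the placement of sites.

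Of the SOX positions, 5 were listed on 2 rows with different scores. Row order splits the list into a shorter part of 8935 rows and a longer part of 34243 rows, and no label says which libraries either stands for. The site at 21594725 of SOX4 scored 3.82 in the former and 15.7 in the latter, and the one at 21595877 scored 31.2 and 11.1. In SOX12 the site at 326103 scored 8.12 in the former and 12.1 in the latter, the one at 326172 scored 9.38 and 90.2, and the one at 326790 scored 25.6 and 13.5. The longer part thus gave the higher score at 3 of these 5 positions, against 70.0% of the 5565 such positions in the list. The 2 scores differed by 1.49 to 9.62-fold in SOX genes, and by a median of 3.19-fold over the list. Of the other 32 SOX positions, 28 were in the longer part alone and 4 in the shorter part alone. Those 4 were the third site of SOX2, the last site of SOX12 and the SOX4 sites at 21594245 and 21594563, with scores of 1.38 to 5.89.

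The remaining 12 genes of the SOX family carried few sites. Only SOX7 and SOX21 were bound, with 3 and 1 sites. SOX7, an endothelial factor of subgroup F, had scores of up to 10.4, and the site of SOX21, a neural factor of subgroup B2, scored 6.33. Over the whole family of 20 genes, 8 were bound (40.0%), next to 39.6% of all protein-coding genes, and their median was again 3 sites. The family as a whole was thus bound at about the background rate, and the 8 genes described above had been chosen with earlier results of these data known.

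**Figure D4:**
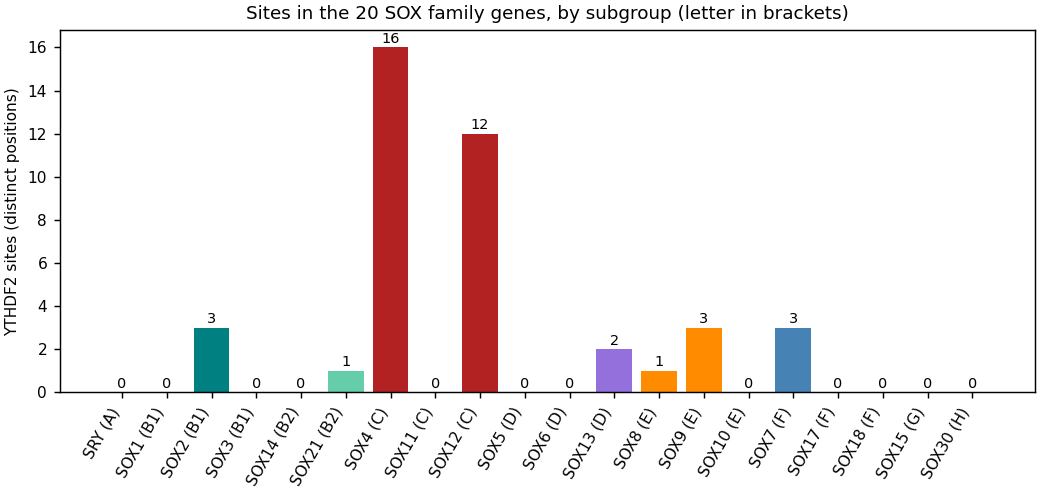
Number of distinct YTHDF2 positions (y axis, from 0) in each of the 20 SOX family genes (x axis, subgroup letter in brackets, bars coloured by subgroup). SOX4 with 16 and SOX12 with 12 exceed all others, which have 0 to 3, and SOX11 of the same subgroup has 0.

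Other genes with an HMG box, and partners and regulators of SOX factors, were counted in the same way. Of 22 other genes with an HMG box, 15 held a site (68.2%, against 39.6% of all protein-coding genes) and 1 held 10 or more (against 5.02%), with a median of 1.5 sites over all 22. The most were in PBRM1, a subunit of a SWI/SNF chromatin remodeller, with 10, in SSRP1, a subunit of the histone chaperone FACT, with 6, and in UBTF, a factor of ribosomal RNA transcription, with 6. Of 20 partners and regulators of SOX factors, 14 held a site (70%, against the same 39.6%) and 6 held 10 or more (against 5.02%), with a median of 4 sites. The remodeller CHD7, a known partner of SOX2, had 28, the ubiquitin ligase TRIP12 had 14 and CTNNB1, the β-catenin gene, had 13. The median over all protein-coding genes was 0 sites. These lists were likewise chosen with earlier results of these data known. They hold long genes, with a median span of 64.1 kb for the HMG-box genes and 38.3 kb for the partners. The median span over all protein-coding genes was 24.1 kb, and no reference of like span was used for the lists.

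The genes most like SOX4 in site number, span, highest score and mean place of the sites were RBM15, ISG20L2 and TWNK, at distances of 0.500, 0.529 and 0.529 SD units among 4849 genes with 3 or more sites. RBM15, a subunit of the m6A methyltransferase complex, had 18 sites over 7.30 kb with a highest score of 103. ISG20L2, a nucleolar exonuclease, had 13 over 6.88 kb with 137, and TWNK, the mitochondrial DNA helicase, had 18 over 6.86 kb with 74.4. The mean place of their sites was 26.5%, 33.4% and 31.9% of the span from the 5′ end, next to 33.9% in SOX4.

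Of 8 genes known to be expressed in HEK293T, 5 held a site, against 39.6% of all protein-coding genes, led by NEFM and VIM with 7 each, and PAX2, KRT8 and KRT18 held 0. Of 8 marker genes of blood, endothelial, liver and connective tissue cells, 0 held a site. With so few genes and no RNA levels, these counts are a weak check of the cell type.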

How the data were processed

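The authors' deposited list, 1 file without a header, gives single-nucleotide YTHDF2 sites from 8 iCLIP2 libraries with a score per row; per the file it has 0 columns of single-sample values. The submitters' processing notes list the build GRCh38.p12 and, without their roles, bedtools 2.27.1, UMI-tools 1.0.0, STAR 2.7.3a and FastQC 0.11.8. Site caller, filters, score scale and pooling are not stated there, and depth per library is unknown.

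Of 43178 rows, those at the same position and strand were joined with the higher score kept (5565 positions on 2 rows). Gene spans came from RefSeq on GRCh38.p14; patches leave the main chromosomes unchanged. Strand came from the RefSeq start-region table (15842 genes, 5 of the 8 SOX genes) or otherwise from the majority of positions, which makes the strand rule empty for SOX8 and SOX9. Both strands were counted for SOX11. Sequences came from the same table.

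The SOX genes, the other lists and the named genes (every SOX gene with a site, the 3 genes with the most sites in each of 2 lists, and the 3 genes nearest to SOX4) were chosen with earlier results of these data known. Likeness was the Euclidean distance over log2 site number, log2 span, log2 highest score and mean relative position, each divided by its SD. The range of 2000 to 10000 nt, the gene ends, gaps and sequence counts were added after seeing the data. Counting was tested on simulated data. Python 3.11.15 was used.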

Additional observations from a re-analysis of the deposited data

How the results depend on the processing

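The count of 37 sites in the 8 SOX genes became 19 with sites at or above the list's median score and 9 in the shorter part of the list alone, both by construction, since fewer sites enter. It stayed within 1.5 times in the longer part alone (33), with sites within 50 nt merged (29), on either strand (37) and with spans extended by 1000 nt (37). The 6 genes with a site became 3 in the shorter part alone, 4 at or above the median score and stayed 6 under the other settings tried. The median score of 10.6 was 7.00 with the lower of 2 scores, where the whole list had 7.02, and 11.5 in the longer part alone. The share of sites in the 3′ part of the span, 18.9%, was 17.2% after merging and 10.5% at or above the median score. SOX4 kept more sites than SOX12 in all of these settings but the shorter part alone, where each had 4. No paired analysis was possible because the list carries no value per library, and for the same reason no replicate could be left out and the effect of depth is unknown.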
